A study of Mus musculus with 8 samples.

Results

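The cortical layer marker genes are 30 genes by which projection neurons of the upper and the deep cortical layers are told apart. They were taken by symbol from a fixed list, 13 upper-layer and 17 deep-layer markers, out of 54446 gene identifiers, and all 30 passed the filter on low counts. Their RNA was counted by strand-specific sequencing of poly(A) transcripts in mouse medial prefrontal cortex. The gene manipulated was Ino80e, whose protein belongs to the INO80 complex that remodels chromatin. There were 4 libraries labelled Ino80e overexpression, where the design text describes an adeno-associated virus delivered by stereotaxic injection to alter the risk gene, and 4 labelled wild type (written wile-type in the titles). The sources used here do not give the promoter and cell type that drove the transgene, the mouse strain, age and sex, the time after injection, or whether wild-type mice received a control virus. No label ties a library to a separate animal. All p-values therefore measure the spread between libraries, which may be technical.

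The neocortex is built in layers, and excitatory neurons of each layer send their axons to different targets. Neurons of the upper layers project mostly within the cortex, those of layer 5 also to the striatum and brainstem, and those of layer 6 to the thalamus. Transcription factors such as Cux2, Fezf2, Bcl11b and Tbr1 set these fates during development and stay on in the adult, and rodent medial prefrontal cortex is known for lacking a distinct layer 4.

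Library totals ran from 44762378 to 60490153 counts. Ino80e itself stood at 74.1, 23.4, 23.3 and 45.04 CPM (counts scaled to library size) in overexpression replicates 1 to 4, against 19.5 to 25.5 CPM in wild type, so replicates 2 and 3 lay within the wild-type range and go against their label. Directions are given by label, overexpression relative to wild type. The excitatory cortical marker Slc17a7 was high in every library, at 1791 to 2218 CPM. Markers of striatal neurons differed more between libraries than between groups. Their summed level over 10 genes, all detected, ran from 219.9 to 501.6 CPM in the libraries labelled overexpression. In wild type it ran from 233.7 to 446.5 CPM. The ends of the overexpression range were replicates 1 and 4, the libraries left where results are given without replicates 2 and 3. Wild-type replicate 4 stood apart with 1038 CPM of 4 choroid plexus markers, against 5.89 to 99.2 CPM elsewhere. It also had the highest summed markers of septum (59.1 CPM, 33.2 to 54.5 elsewhere), hippocampus (48.4 CPM, 31.4 to 36.3) and thalamus (49.2 CPM, 26.8 to 40.3). Its claustrum markers, at 87.8 CPM, were within the range of the other libraries. The part of these regions in the levels of the layer markers was not tested. In such bulk tissue, fewer cells of a type and less RNA per cell cannot be told apart.

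The layer markers also differ in base composition, and in these libraries fold changes rose with transcript GC content, as given further on. A stretch of coding sequence of the marker lowest in GC, Calb1, and of the marker highest in GC, Nxph4, is shown for this reason. Each is a run of 120 bases, 5′ to 3′, whose GC content is nearest to that of the whole coding part, taken from GENCODE transcripts of GRCm38, with G and C in capitals.
Calb1: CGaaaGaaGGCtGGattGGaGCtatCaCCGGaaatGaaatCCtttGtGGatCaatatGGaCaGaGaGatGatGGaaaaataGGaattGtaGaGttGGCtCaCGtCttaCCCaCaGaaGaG
Nxph4: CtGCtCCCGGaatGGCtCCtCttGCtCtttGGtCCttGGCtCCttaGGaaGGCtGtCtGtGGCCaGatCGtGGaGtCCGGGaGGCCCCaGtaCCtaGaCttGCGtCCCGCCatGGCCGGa
The Calb1 stretch, coding bases 139 to 258, holds 52 G or C bases (43.3%), and the Nxph4 stretch, coding bases 7 to 126, holds 75 (62.5%). Over the longest transcript the GC content was 36.8% for Calb1 and 61.4% for Nxph4. The 3′ part after the Calb1 stop codon, 3301 bases long, was lower still at 33.8%.

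Levels between genes are compared as CPM per kilobase of exon, in wild type, as mean ± SD over 4 libraries. Among upper-layer markers Lamp5, a membrane protein of the lysosome-associated family that also marks a class of interneurons, was highest at 72.2 ± 5.88 CPM per kilobase. It was followed by Wfs1, an endoplasmic reticulum membrane protein (31.9 ± 2.37), Rasgrf2, an exchange factor for small GTPases (24.3 ± 1.56), and Calb1, a calcium-binding protein also made by interneurons (23.9 ± 2.24). The transcription factor genes Lhx2 and Cux2 and the semaphorin receptor gene Plxnd1 had levels of 15.2 ± 1.48, 14.4 ± 1.92 and 14.3 ± 0.958 CPM per kilobase. Stard8, of a lipid-transfer protein family, and the cadherin gene Cdh13 had levels of 8.87 ± 0.933 and 8.06 ± 0.355 CPM per kilobase. Cux1, the nuclear receptor gene Rorb that marks layer 4, the calcium sensor gene Otof and the cell-surface gene Mdga1 closed the order at 4.51 ± 0.253, 3.27 ± 0.481, 2.82 ± 0.342 and 1.73 ± 0.171 CPM per kilobase. The length is that of the exons of all transcripts joined, and Cux1 had the longest of the 30 at 20024 bases. Neighbours in this order closer than their spread were Rasgrf2 and Calb1, Lhx2, Cux2 and Plxnd1, Stard8 and Cdh13, and Rorb and Otof.

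Among deep-layer markers the layer 6 transcription factor gene Tbr1 was highest at 35.9 ± 2.11 CPM per kilobase. The heparan sulfate sulfatase gene Sulf2 followed at 30.1 ± 1.09, and Rprm, which encodes the cell cycle inhibitor Reprimo, at 27.6 ± 2.21 CPM per kilobase. The sulfotransferase gene Hs3st4 (20.2 ± 1.16), the thyroid hormone binding protein gene Crym (16.7 ± 1.51) and Fezf2, a zinc finger factor needed for subcerebral projection neurons (14.5 ± 1.14), came next in that unit. Tle4, a corepressor of corticothalamic neurons, and Bcl11b, a zinc finger factor of layer 5 that striatal neurons also express, had levels of 10.8 ± 0.605 and 10.2 ± 1.16 CPM per kilobase. The layer 5 genes Etv1, a transcription factor, and Pcp4, a calmodulin-binding peptide, had levels of 8.84 ± 0.982 and 8.22 ± 1.30. Cplx3, a complexin of layer 6b, and Syt6, a synaptotagmin, had 5.29 ± 0.214 and 4.95 ± 0.610. The semaphorin gene Sema3e, whose product binds the receptor encoded by Plxnd1, and the transcriptional regulators Sox5 and Zfpm2 had 3.34 ± 0.342, 3.25 ± 0.344 and 2.80 ± 0.304. Nxph4, a neurexophilin of layer 6b, and Foxp2, a forkhead factor of layer 6 and of striatal neurons, were lowest at 1.58 ± 0.303 and 0.924 ± 0.195 CPM per kilobase. Tle4 and Bcl11b, Etv1 and Pcp4, Cplx3 and Syt6, and Sema3e and Sox5 were closer to each other than their spread.

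**Figure D1:**
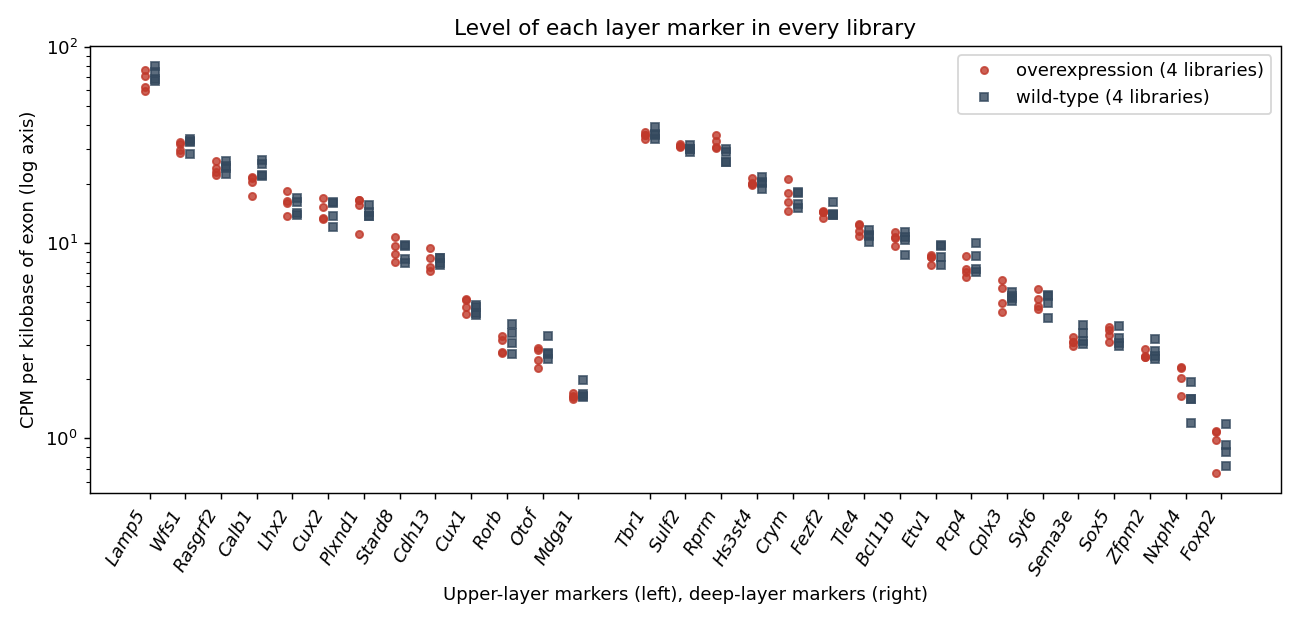
Level of each layer marker in CPM per kilobase of exon (log axis) in every library, with circles for the 4 libraries labelled overexpression and squares for the 4 wild-type libraries. The spread between genes, from 0.924 CPM per kilobase for Foxp2 to 72.2 for Lamp5 in wild type, is far wider than the spread between libraries of any one gene.

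The reads behind these values were many: the smallest count of any layer marker in any library was 110, for Nxph4. Between libraries the coefficient of variation of CPM over all 8 libraries had a median of 9.42% over the 30 layer markers, against 10.8% over all genes tested. It was lowest for Sulf2 (3.21%), Hs3st4 (4.38%) and Tbr1 (4.65%) and highest for Foxp2 (19.5%) and Nxph4 (21.3%).

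The comparison asks whether layer identity genes differ between the libraries labelled overexpression and wild type. No layer marker passed the test: 0 of 13 upper-layer and 0 of 17 deep-layer markers had a Benjamini-Hochberg adjusted p under 0.05 in edgeR's quasi-likelihood test, where 0.034% of the 17636 genes tested passed. DESeq2 and limma-voom also called 0 of 30. At an unadjusted p under 0.05 edgeR gave 2 of 30, Calb1 and Rprm (6.67%), against 10.7% of all genes. With an offset for GC content the share was higher among the markers than among all genes, as given further on. The 95% interval of the log2 fold change lay within 0.32 of 0 in either direction for 24 of the 30 markers, and within 0.585 (a 1.5-fold change) for 29, the exception being Nxph4. The same held for 8514 and 12071 of the 17636 genes tested.

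Calb1 was the upper-layer marker with the lowest p. It stood at 103.4, 98.8, 104.6 and 83.6 CPM in overexpression replicates 1 to 4 and at 122.6, 127.2, 107.3 and 105.4 CPM in wild-type replicates 1 to 4. Every overexpression library was below every wild-type library, by a margin smaller than 1 CPM between overexpression replicate 3 and wild-type replicate 4. The groups did not overlap in that direction for 3.02% of all genes. The log2 fold change was -0.24 (SE 0.074, 95% interval -0.40 to -0.088), which did not pass over all genes (edgeR adjusted p = 0.31). With no filter on low counts it did (edgeR adjusted p = 0.015), in a fit that called 0.277% of 29946 genes. With an offset for GC content it was -0.12 (SE 0.066, edgeR adjusted p = 0.97), and without overexpression replicates 2 and 3 it was -0.30 (SE 0.093, edgeR adjusted p = 0.58). Over the 21 alternatives its adjusted p ran from 0.015 to 0.996. The summed CPM of 10 interneuron markers overlapped between groups, at 841.4 to 944.6 in the overexpression libraries and 861.9 to 922.3 in wild type. That sum does not single out the interneurons that make Calb1, so it cannot show whether they differ. Calb1 (ENSMUSG00000028222) occupies chromosome 4 from 15881264 to 15908064 in GRCm38, plus strand.

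Rprm was the deep-layer marker with the lowest p. It stood at 44.3, 48.4, 51.9 and 44.9 CPM in overexpression replicates 1 to 4 and at 42.1, 37.7, 37.6 and 44.03 CPM in wild-type replicates 1 to 4. Every overexpression library was above every wild-type library, by a margin smaller than 1 CPM between overexpression replicate 1 and wild-type replicate 4, and the groups did not overlap in that direction for 2.82% of all genes. The log2 fold change was 0.23 (SE 0.068, 95% interval 0.091 to 0.37), which did not pass over all genes (edgeR adjusted p = 0.31). It was 0.14 with the GC offset (SE 0.066, edgeR adjusted p = 0.95) and 0.15 without overexpression replicates 2 and 3 (SE 0.082, edgeR adjusted p = 0.72). Over the 21 alternatives its adjusted p ran from 0.10 to 0.996. Rprm (ENSMUSG00000075334) occupies chromosome 2 from 54084093 to 54085552 in GRCm38, minus strand.

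**Figure D2:**
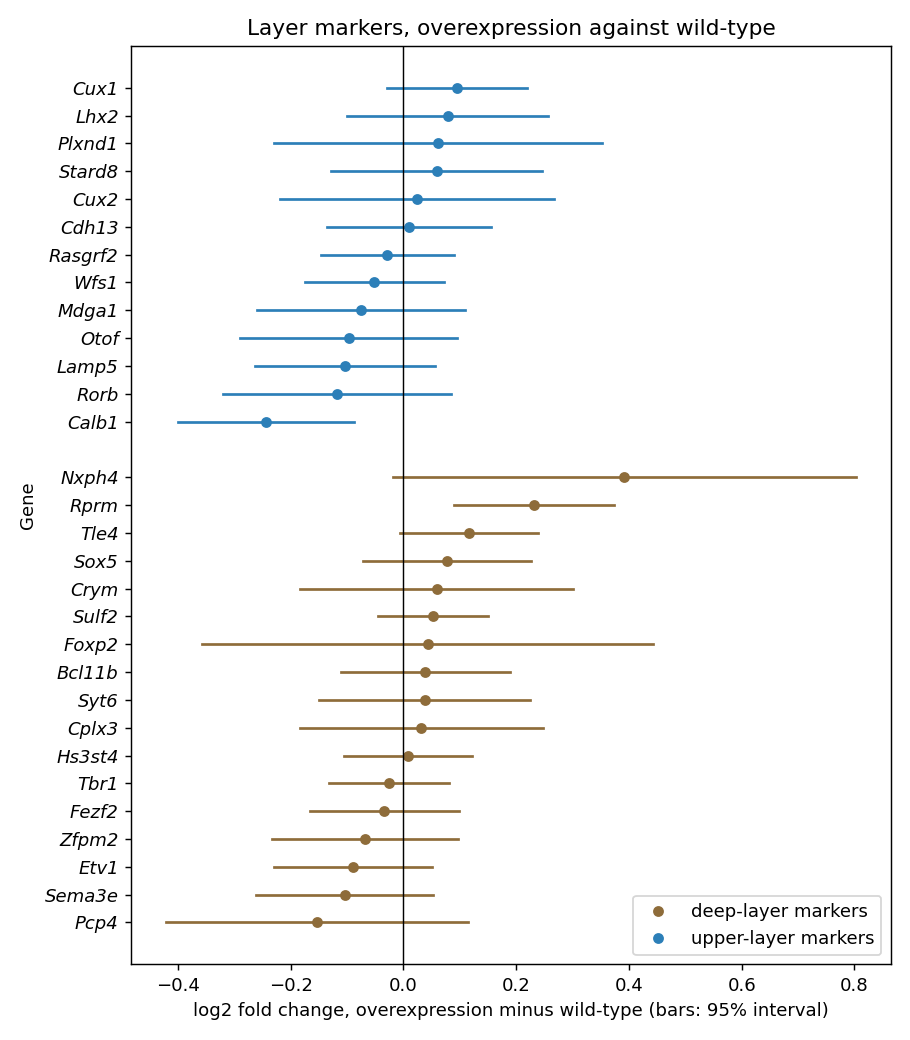
Log2 fold change of each layer marker, overexpression minus wild type, from edgeR, with bars for the 95% interval (n = 4 libraries a group). The intervals of Calb1 (-0.40 to -0.088) and Rprm (0.091 to 0.37) leave out 0, and none passed after adjustment over all genes tested.

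Of the other upper-layer transcription factor genes, Cux2 stood at 170.1, 135.2, 152.6 and 133.6 CPM in overexpression replicates 1 to 4 and at 138.0, 161.9, 160.2 and 121.4 CPM in wild type. Its highest library was overexpression replicate 1 and its lowest wild-type replicate 4, and the groups overlapped (log2 fold change 0.02, SE 0.11). Cux1 stood at 101.6, 86.6, 103.5 and 94.2 CPM against 85.0, 93.6, 95.6 and 87.2 CPM, with overlapping groups and a log2 fold change of 0.10 (SE 0.060, edgeR adjusted p = 0.57). Rorb had 37.1, 30.8, 35.3 and 30.2 CPM in the overexpression libraries and 34.1, 42.4, 38.3 and 30.01 CPM in wild type. The lowest library of either group was replicate 4, at nearly the same level, and its log2 fold change was -0.12 (SE 0.096, edgeR adjusted p = 0.68). For Lhx2, a LIM homeodomain factor, the log2 fold change was 0.08 (SE 0.083).

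Lamp5 stood at 207.8, 174.1, 223.2 and 183.6 CPM in the overexpression libraries and at 199.8, 233.0, 218.7 and 196.0 CPM in wild type, with a log2 fold change of -0.10 (SE 0.075, edgeR adjusted p = 0.63). Mdga1, the upper-layer gene with the lowest level per kilobase, stood at 15.6, 16.2, 15.2 and 15.5 CPM against 15.97, 15.4, 15.6 and 18.9 CPM, the last being wild-type replicate 4. The groups of both genes overlapped. The remaining upper-layer log2 fold changes were -0.10 for Otof, -0.08 for Mdga1, -0.05 for Wfs1, -0.03 for Rasgrf2, 0.01 for Cdh13, and 0.06 for both Stard8 and Plxnd1, with SE of 0.057 to 0.13.

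The deep-layer factors that set projection fate showed small differences. Tbr1 stood at 202.3, 193.5, 193.3 and 184.8 CPM in overexpression replicates 1 to 4 and at 193.6, 212.9, 195.8 and 185.3 CPM in wild type (log2 fold change -0.03, SE 0.052). Fezf2 stood at 43.98, 43.8, 43.5 and 40.8 CPM against 42.4, 42.5, 41.95 and 49.2 CPM (log2 fold change -0.03, SE 0.064). Bcl11b stood at 78.03, 85.3, 86.2 and 91.7 CPM against 83.6, 91.98, 69.9 and 86.7 CPM (log2 fold change 0.04, SE 0.072). For all 3 the groups overlapped, and the 95% intervals of -0.13 to 0.081, -0.17 to 0.098 and -0.11 to 0.19 set how large a difference these libraries allow. The intervals go by label and include overexpression replicates 2 and 3, whose Ino80e was in the wild-type range. Without those 2 libraries the SE of Tbr1, Fezf2 and Bcl11b were larger, at 0.069, 0.083 and 0.098.

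Tle4 was above every wild-type library in overexpression replicates 1 and 3 and within the wild-type range in replicates 2 and 4, at 70.2, 61.5, 71.3 and 64.98 CPM against 61.5, 62.6, 57.4 and 65.8 CPM, with overlapping groups (log2 fold change 0.12, SE 0.059, edgeR adjusted p = 0.49). The layer 6b gene Nxph4 had 3.42, 3.88, 2.74 and 3.84 CPM in the overexpression libraries and 2.67, 2.65, 2.01 and 3.25 CPM in wild type. Its log2 fold change of 0.39 was the largest of the 30 but also carried the largest error (SE 0.20, 95% interval -0.019 to 0.80, edgeR adjusted p = 0.48), and the groups overlapped. Without overexpression replicates 2 and 3 it was 0.46 (SE 0.25, edgeR adjusted p = 0.72). The other layer 6b marker of the list, Cplx3, had a log2 fold change of 0.03 (SE 0.10). Sema3e stood at 28.7, 29.0, 27.4 and 30.4 CPM against 31.9, 35.2, 28.1 and 29.1 CPM (log2 fold change -0.10, SE 0.076, edgeR adjusted p = 0.63), while its receptor gene Plxnd1 had 0.06 (SE 0.13).

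The remaining deep-layer log2 fold changes were -0.15 for Pcp4, -0.09 for Etv1, -0.07 for Zfpm2, 0.01 for Hs3st4, 0.04 for both Syt6 and Foxp2, 0.05 for Sulf2, 0.06 for Crym and 0.08 for Sox5, with SE of 0.048 to 0.18. Sulf2 was the most even of them, at 186.7, 182.7, 183.5 and 179.7 CPM in the overexpression libraries and 175.8, 185.3, 169.9 and 175.4 CPM in wild type. Exons of Pcp4 share 243 bases with Igsf5 on the same strand, and those of Cux1, Hs3st4, Sox5, Sulf2 and Syt6 overlap a gene on the opposite strand, so reads in those stretches may be shared, as the strand setting of the counting is unknown.

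**Figure D3:**
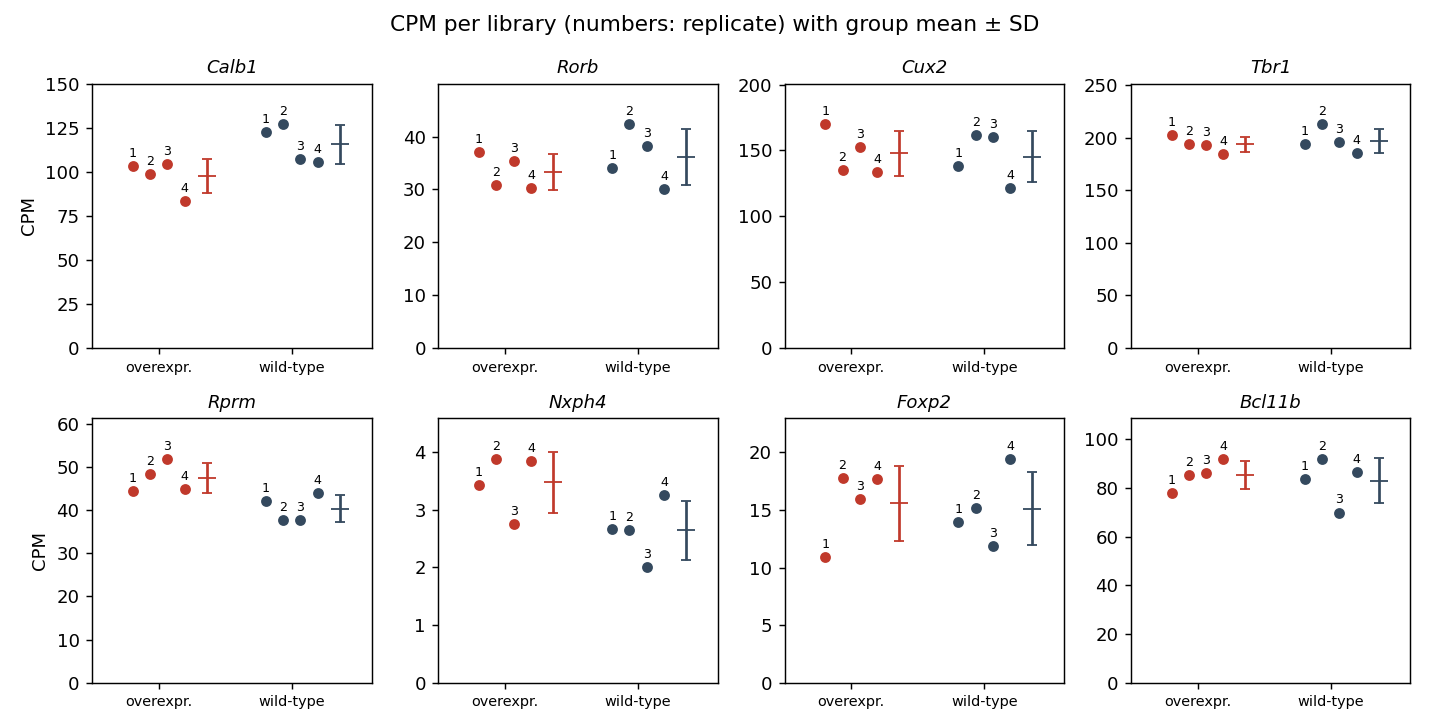
CPM of 8 layer markers in each library, with the replicate number above each point and the group mean ± SD beside the points (n = 4 a group). The groups are apart for Calb1 and Rprm and overlap for Rorb, Cux2, Tbr1, Nxph4, Foxp2 and Bcl11b.

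As lists, the 2 layer classes did not move far. The upper-layer markers had a median log2 fold change of -0.03, with 6 of 13 above 0, and the deep-layer markers one of 0.04, with 11 of 17 above 0, where the median of all genes tested was 0.0016. The upper-layer median stayed below 0 in every alternative tried, from -0.076 to -0.0076. The deep-layer median fell below 0 without overexpression replicate 2 (-0.015), without wild-type replicate 3 (-0.028) and without overexpression replicates 2 and 3 together (-0.024). Without those 2 libraries, whose Ino80e was in the wild-type range, 7 of 17 deep-layer and 6 of 13 upper-layer markers were above 0, and 0 of 30 were called. The overexpression libraries then left, replicates 1 and 4, had the lowest and highest summed striatal markers of the 8 libraries (219.9 and 501.6 CPM).

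Per library, the mean log2 shift of the upper-layer markers from their mean over the 8 libraries was 0.096, -0.10, 0.051 and -0.11 in overexpression replicates 1 to 4 and -0.012, 0.074, 0.087 and -0.087 in wild type. Both groups thus held libraries well above and well below 0. The deep-layer shifts were -0.015, 0.037, 0.036 and 0.015 in the overexpression libraries and 0.015, 0.019, -0.16 and 0.052 in wild type. Wild-type replicate 3 was the low one, and 9 of the 17 deep-layer markers had their lowest level there. The upper-layer shift less the deep-layer shift had a mean of -0.034 ± 0.12 in the libraries labelled overexpression and 0.034 ± 0.16 in wild type (SD, n = 4 each), a difference of -0.068 that is smaller than the spread within either group.

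**Figure D4:**
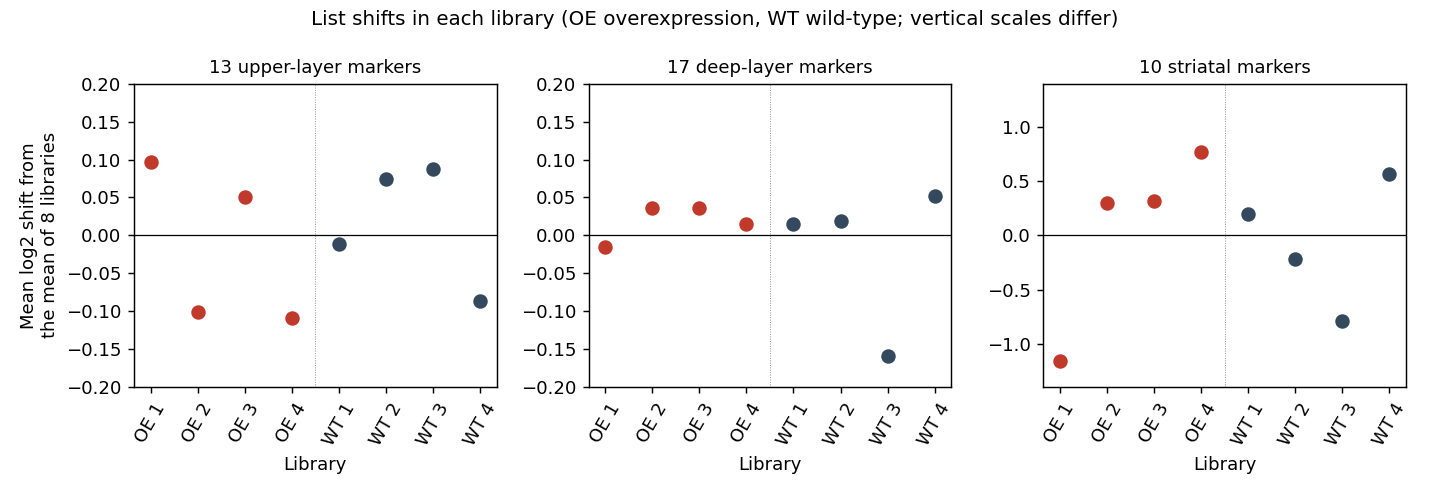
Mean log2 shift of the upper-layer, deep-layer and striatal markers in each library from their mean over the 8 libraries (red, overexpression; dark, wild type; the striatal scale is wider). The striatal shift runs from -1.16 in overexpression replicate 1 to 0.77 in overexpression replicate 4, and the upper-layer shift is highest, at 0.096, where the striatal one is lowest. In that library the shift of 6 glutamatergic markers, not drawn, was also highest (0.097), and the summed oligodendrocyte markers were lowest (3976 CPM).

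Some layer markers varied with the striatal markers across libraries, though no relation passed after adjustment over the 30 markers. The striatal shift was -1.16, 0.30, 0.32 and 0.77 in overexpression replicates 1 to 4 and 0.20, -0.22, -0.79 and 0.57 in wild type. Foxp2 stood at 10.9, 17.8, 15.95 and 17.7 CPM in the overexpression libraries and at 13.97, 15.2, 11.9 and 19.4 CPM in wild type, lowest in the same 2 libraries in which the striatal markers were lowest. Across the 8 libraries its log2 CPM and the striatal shift had r = 0.92 (exact permutation p = 0.0018, adjusted over the 30 markers 0.053) and rho = 0.86 (exact permutation p = 0.011, adjusted 0.092). Cux2 went the other way, with r = -0.85 (exact permutation p = 0.0056, adjusted 0.056) and rho = -0.88 (exact permutation p = 0.0072, adjusted 0.092), and so did Rasgrf2, with r = -0.88 (exact permutation p = 0.0038, adjusted 0.056) and rho = -0.83 (exact permutation p = 0.015, adjusted 0.092).

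Of the 30 two-sided relations, 6 had an unadjusted exact permutation p under 0.05 for r and 0 passed after adjustment for r or for rho. Leaving out overexpression replicate 1 and wild-type replicate 3, the libraries farthest from the median striatal shift, gave r = 0.66 for Foxp2, -0.76 for Cux2 and -0.65 for Rasgrf2. For Bcl11b, r was 0.73 (exact permutation p = 0.041, adjusted 0.21) and rho 0.62 (exact permutation p = 0.115, adjusted 0.40), and r without those libraries was -0.03, so that relation rests on them. For Tbr1, r was -0.66 (exact permutation p = 0.074, adjusted 0.25) and rho -0.93 (exact permutation p = 0.0022, adjusted 0.067), and r without those libraries was -0.96. With 4 libraries a group, no r was computed within a group. The coefficient r was below 0 for 12 of the 13 upper-layer markers, with Mdga1 the exception, and above 0 for 13 of the 17 deep-layer markers, Tbr1, Sulf2, Cplx3 and Sox5 being below 0. Over all genes tested it was below 0 for 9129 and above 0 for 8507 of 17636. It was below -0.7 for 4 of 13 upper-layer markers against 2.34% of all genes tested, and above 0.7 for 2 of 17 deep-layer markers against 3.69%. These points share libraries and a fixed total of CPM. Other marker lists varied between the libraries too. The mean log2 shift of 6 glutamatergic markers was 0.097, -0.043, 0.041 and -0.046 in overexpression replicates 1 to 4 and -0.021, 0.057, 0.0070 and -0.093 in wild type, of the same sign as the upper-layer shift in every library. After the GC offset was taken out, the signs differed in overexpression replicate 3 (upper-layer 0.034, glutamatergic -0.018). Overexpression replicate 1 had the highest summed level of the 6 glutamatergic markers (9452 CPM, against 7669 to 9256 elsewhere) and the lowest of 6 oligodendrocyte markers (3976 CPM, against 4792 to 5806). The part of these lists in the levels of the layer markers was not tested. The striatal shift overlapped between groups, with all 10 striatal genes at a log2 fold change above 0 (median 0.21) and 0 of them called. Its part in the fold changes of the layer markers was looked at in 1 way: a fit with the striatal shift as a covariate, chosen after seeing the data, called 0 of the 30 markers, with 2 at an unadjusted p under 0.05. In it the SE of Foxp2 was 0.096 in place of 0.18 and that of Cux2 0.057 in place of 0.11, with log2 fold changes of -0.01 and 0.05. Both genes were named above for their r with the same shift, so a smaller SE followed from that r and is no separate test.

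The fold changes of the layer markers rose with transcript GC content. Over the 30 genes, Pearson's r between GC content and log2 fold change was 0.50 and Spearman's rho 0.38, and over 17627 genes tested with a GC value they were 0.24 and 0.41. Genes are not independent replicates, so these describe the libraries. The genes at the ends of the GC range, Calb1 and Nxph4, shown above, were also those with the lowest and highest fold change. With the GC offset the upper-layer median was -0.060 with 3 of 13 above 0, and the deep-layer median was 0.0043 with 9 of 17 above 0. The median of all genes tested was then -0.012. In that fit 3 of 13 upper-layer markers had an unadjusted edgeR p under 0.05: Otof (-0.19), Wfs1 (-0.16) and Mdga1 (-0.18). So did 2 of 17 deep-layer markers, Tle4 and Rprm, and 897 of the 17636 genes tested. Calb1 no longer did, and 0 of 13 and 0 of 17 passed after adjustment. The log2 fold change of Nxph4 was then 0.27 (SE 0.20), that of Rorb -0.04 (SE 0.099) and that of Tle4 0.14 (SE 0.060, edgeR adjusted p = 0.93).

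**Figure D5:**
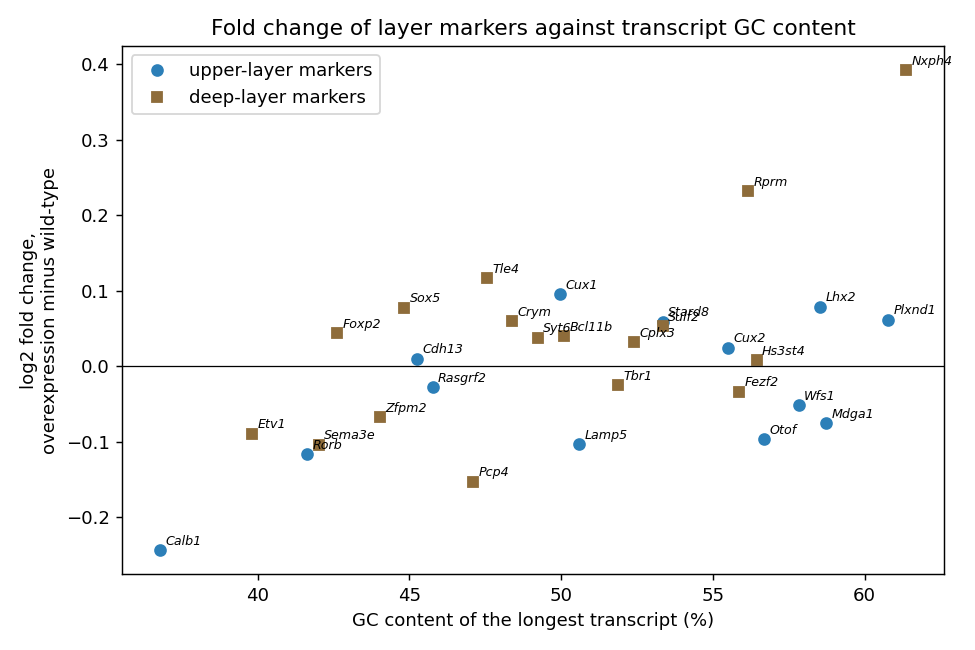
Log2 fold change of each layer marker, overexpression minus wild type, against the GC content of its longest transcript (circles, upper-layer; squares, deep-layer). Calb1, at 36.8% GC, has the lowest fold change (-0.24) and Nxph4, at 61.4%, the highest (0.39).

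Other layer genes outside the list were looked at in the same fit. Of 12 further upper-layer genes, 0 passed in edgeR, 0 had an unadjusted p under 0.05 and 3 were above 0, with a median log2 fold change of -0.05. Among them the zinc transporter gene Slc30a3 had 0.12 (SE 0.074), Lmo4 0.01 (SE 0.053) and the ligand gene Kitl -0.14 (SE 0.083). Of 17 further deep-layer genes, 0 passed in edgeR, 2 had an unadjusted p under 0.05 and 6 were above 0, with a median of -0.06, opposite in sign to the median of the 17 markers. Their 95% intervals lay within 0.32 of 0 for 4 of 17, against 13 of 17 for the deep-layer markers. The layer 6b gene Ccn2 stood at 16.8, 15.2, 17.4 and 19.8 CPM in the overexpression libraries and 13.8, 13.95, 14.6 and 15.5 CPM in wild type (log2 fold change 0.26, SE 0.094, edgeR adjusted p = 0.35), with overlapping groups. Ldb2, a cofactor of LIM homeodomain proteins in layer 5, stood at 70.4, 71.7, 62.0 and 62.8 CPM against 77.2, 82.9, 69.7 and 77.7 CPM, also overlapping (log2 fold change -0.20, SE 0.062, edgeR adjusted p = 0.31). Bcl6 had 0.13 (SE 0.077) and Moxd1 -0.21 (SE 0.13).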

How the data were processed

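Polyadenylated RNA of the medial prefrontal cortex was sequenced as dUTP strand-specific libraries, per the labels' protocols. The authors deposited raw read counts per Ensembl gene, 1 column per library. The submitters' processing notes list featureCounts 2.0.3, STAR 2.7.10 and Trimmomatic 0.39, with GRCm38 (mm10) as the build. The strand setting, annotation release and handling of multi-mapping reads were not given in the sources used here.

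Groups and replicate numbers came from the sample titles. Symbols, coordinates, exon length (union of exons) and GC content (longest transcript) came from GENCODE M21 on GRCm38: 54409 identifiers had a symbol and 37 had none. The test, run across all genes, was edgeR 4.0.16 (R 4.3.3): filterByExpr, TMM scaling, robust quasi-likelihood F test, group as the sole term, two-sided, Benjamini-Hochberg adjustment over 17636 genes, threshold 0.05. CPM are relative to TMM-scaled library sizes, and log2 CPM had a prior count of 2. Values are mean ± SD over 4 libraries, SE came from the F statistic and 95% intervals from its degrees of freedom. The script was tested on simulated data. No library was a copy of another: chi-square over its degrees of freedom was at least 9.53 for every pair.

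The GC offset regressed the deviation of log2 CPM in a library from the gene mean on a natural spline of GC content (5 degrees of freedom). Alternatives were RLE and upper-quartile scaling, no filter, a filter of 1 CPM in 4 or more libraries, limma-voom (limma 3.58.1), DESeq2 1.42.0, no robust estimation, the replicate block, the GC offset with and without the block, and libraries left out singly or in 2 pairs. The striatal covariate was added after seeing the data. The members, lists and tests were chosen with earlier results of these data known. All 30 members are named. Library values are given for the 4 lowest p per list, the ends of the level order, 5 layer-defining factors and any member called in an alternative. Foxp2 also falls under the level rule, and values of Sulf2 were added after they were seen. Of the other layer genes, the 2 lowest p per list and direction are named, except 1 that is not reported here.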

Additional observations from a re-analysis of the deposited data

Results flagged for a closer look

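The gap between the most extreme library and its nearest neighbour, divided by the range of the group, was above the 95% limit of Dixon's test in 4 of 66 groups of 4 libraries looked at, and chance alone passes that limit in about 5% of groups. Fezf2 was highest in wild-type replicate 4, at 49.2 CPM, and Mdga1 was highest in the same library, at 18.9 CPM, the library with the high choroid plexus markers. Fezf2 was lowest, within the group labelled overexpression, in replicate 4 (40.8 CPM). Zfpm2 was highest, within that group, in replicate 2 (27.3 CPM).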

How the results depend on the processing

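Over 21 alternatives, 0 upper-layer and 0 deep-layer markers were called, except 1 upper-layer marker, Calb1, with no low-count filter. The count over all genes, 6, was 83 with no low-count filter, 44 with DESeq2, 2 with limma-voom, 2 without robust estimation, 1 with the replicate block, 11 without overexpression libraries 1 and 2, 1 without overexpression libraries 2 and 3, 13 with the striatal covariate, and 1 to 8 without single libraries. Same-numbered libraries did not deviate together over all genes tested (r from -0.051 to 0.027). Of the wild-type libraries, 0 was best matched by its own number. The numbers thus showed no pairing over all genes, and a pairing that acts on few genes cannot be seen this way.

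Signs of uncalled log2 fold changes turned for 17 of 30 markers, in 53 of 630 values. With the GC offset these were Cux2 -0.061, Rasgrf2 0.014, Stard8 -0.0023, Lhx2 -0.027, Plxnd1 -0.060, Etv1 0.0043, Hs3st4 -0.086, Sulf2 -0.0090 and Cplx3 -0.015. With the block and the offset they were -0.057, 0.012, -0.0038, -0.032, -0.071, 0.0063, -0.084, -0.0075 and -0.030. Without overexpression libraries 2 and 3 they were Rasgrf2 0.020, Cdh13 -0.050, Foxp2 -0.083, Hs3st4 -0.022, Crym -0.13 and Cplx3 -0.043. Without 1 and 2 they were Cux2 -0.022, Cdh13 -0.14, Lhx2 -0.038, Hs3st4 -0.017 and Crym -0.039. With the striatal covariate Foxp2 was -0.014. Without single libraries the ranges were -0.053 to 0.077 for Cux2, -0.069 to 0.063 for Cdh13, -0.066 to 0.12 for Cplx3, -0.077 to 0.0077 for Rasgrf2, -0.058 to 0.19 for Foxp2, -0.027 to 0.040 for Hs3st4, -0.044 to 0.14 for Crym, -0.015 to 0.13 for Stard8, -0.043 to 0.084 for Syt6, -0.053 to 0.011 for Tbr1, -0.035 to 0.089 for Bcl11b, -0.056 to 0.024 for Fezf2 and -0.11 to 0.0072 for Zfpm2. The cause was not tested. The difference of upper-layer and deep-layer shifts ran from -0.13 to 0.0028 without single libraries, and the library that turned it was wild-type replicate 3. It was computed only with the GC offset and with libraries left out. Each group held 4 libraries. Apart from the simulated data, how far the spread between libraries or the depth limits these values was not tested.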
